A study of Mus musculus with 30 samples.

Results

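Total RNA of mouse hindbrain was compared between 2 bacTRAP lines, the Slc6a2 line and the Slc6a4 line, in mice given LPS or sterile PBS. The arrays were chosen by their labels alone, as those of Pre-IP or Unbound RNA of either line. They number 15 of the 30 bead arrays of the series, 7 from Slc6a2 and 8 from Slc6a4 mice. The other 15 arrays hold RNA purified from the tagged neurons of the same lines (TRAP RNA) and serve here as a reference. The design text names 4 male and 4 female adult mice per line, and the labels give an age of 6 to 12 weeks. All mice carried a telemetry transponder, were kept at 30 °C, a thermoneutral temperature that permits fever, and received 100 ug/kg LPS or the vehicle into the peritoneum. The transgenes are Tg(Slc6a2-EGFP/Rpl10a)JD1538Jdd/J and Tg(Slc6a4-EGFP/Rpl10a)JD60Jdd/J, both on B6;FVB, so both groups are transgenic and have a mixed C57BL/6 and FVB background. No wild-type hindbrain was analysed here.

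In a bacTRAP line, a bacterial artificial chromosome carries the regulatory DNA of a driver gene and expresses the ribosomal protein Rpl10a fused to the fluorescent protein EGFP. The tag lets ribosomes of the driver gene's cells be pulled out of a tissue lysate with their mRNA. Slc6a2 encodes the plasma membrane noradrenaline transporter, which marks noradrenergic neurons such as those of the locus coeruleus, and Slc6a4 encodes the serotonin transporter, which marks the serotonergic neurons of the raphe nuclei. Both cell groups are a small minority of hindbrain cells and project widely through the brain. Total RNA of the lysate is the usual denominator for TRAP enrichment, so a comparison of TRAP RNA between lines takes for granted that the tissue itself is alike. The comparison of total RNA asks how far whole hindbrain differed between the lines. LPS, a bacterial cell wall lipid, was used to induce fever.

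Total RNA came from lysate taken before the pulldown (Pre-IP) on 7 arrays and after it (Unbound) on 8. Pre-IP RNA was always amplified in batch 1 and Unbound RNA always in batch 2, and these factors cannot be told apart. Within the Slc6a2 line, 3 arrays were of batch 1 and 4 of batch 2, and within the Slc6a4 line there were 4 of each. Each combination of line, sex, treatment and batch was seen on 1 array, except that Slc6a2 LPS male Pre-IP RNA was not analysed here. The sample titles also carry a letter and a number whose meaning the labels do not give. Letter D held 6 Slc6a2 arrays, letter E held 6 Slc6a4 arrays, and letter F held the last 3, which were Slc6a2 LPS male of batch 2, Slc6a4 LPS male of batch 2 and Slc6a4 PBS female of batch 1. The letter was therefore almost the same split as the line. The labels do not tie arrays to individual mice, so p-values measure the spread between these RNA samples.

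Probes detected per array, at a detection p under 0.01, ranged from 20395 to 22652 in the Slc6a2 line and from 20990 to 23122 in the Slc6a4 line, of 45281 probes. The means were 21859 ± 832 (SD, n = 7) and 22039 ± 740 (SD, n = 8), and the difference, Slc6a2 minus Slc6a4, of -180.3 was within that spread (two-sided exact permutation test over 6435 assignments, p = 0.660). It was 63.6 without the Slc6a2 PBS male array of batch 2. The median deposited intensity, in scanner units, did differ, at 112.4 ± 16.5 (SD, n = 7) in the Slc6a2 line and 132.4 ± 6.63 (SD, n = 8) in the Slc6a4 line (two-sided exact permutation p = 0.0109, a test added after the values were seen). Letter D arrays, all Slc6a2, lay between 100.4 and 112.8 and letter E arrays, all Slc6a4, between 124.2 and 140.2. Of letter F, the Slc6a2 array was the brightest of all, at 148.2, and the Slc6a4 arrays were at 121.9 and 136.2. Only that Slc6a2 array departs from the split by line, so letter and line cannot be told apart here. Quantile normalization gives every array the same distribution before the lines are compared, and its sufficiency for this brightness difference was not tested.

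**Figure D1:**
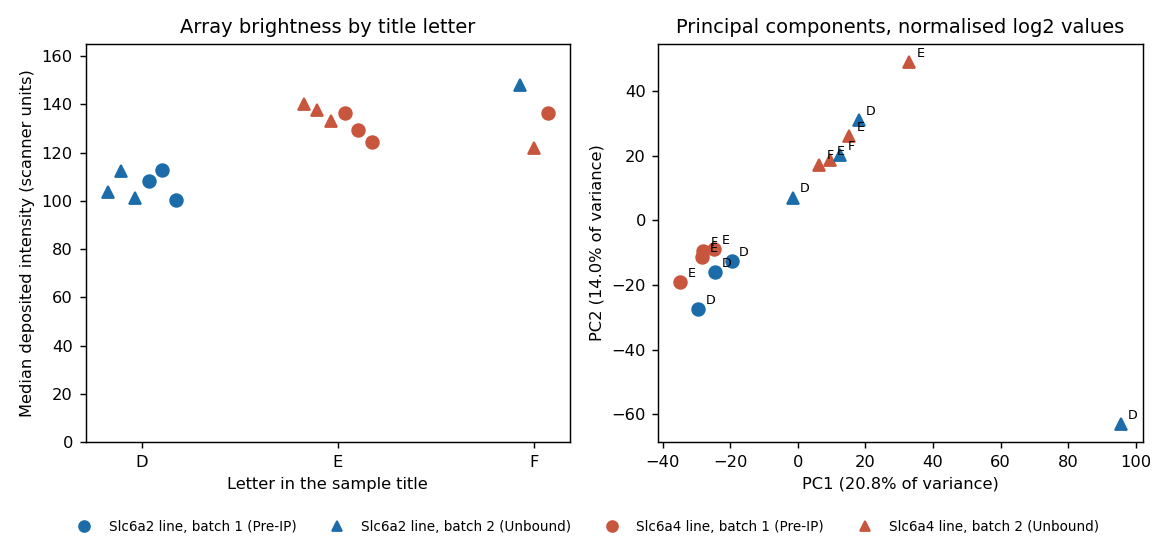
Left, median deposited intensity in scanner units of each total RNA array by the letter in its title; right, the first and second principal components of the normalised log2 values, 1 point per array, marked with its letter. Colours give the line and shapes the batch. Letter D arrays (100.4 to 112.8) lie below letter E arrays (124.2 to 140.2), batch 1 lies at the left of the first component, and 1 Slc6a2 array of letter D and batch 2 stands at 95.5.

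The main axis of variation followed the batch and not the line. The first principal component held 20.8% of the variance, with batch 1 arrays between -34.7 and -19.5 and every batch 2 array above them, at -1.5 or more. Slc6a2 PBS male of batch 2 stood far out at 95.5 and also had the fewest detected probes (20395). Within batch 1, arrays of the same line correlated at a median r of 0.9794 over 9 pairs and arrays of different lines at 0.9680 over 12 pairs. Within batch 2 the medians were 0.9390 over 12 pairs and 0.9409 over 16 pairs. Arrays of the same line were thus more alike than arrays of different lines in batch 1 but not in batch 2. These r values are across probes of the arrays and carry no test.

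No probe can be given a gene name or a sequence here, because the table names probes by Illumina identifier alone and 0 of those identifiers are in the gene table used. The driver genes, markers of noradrenergic, serotonergic or glial cells, and the tissue label itself could therefore not be checked through named genes. In the sentences that follow, a probe is named by its identifier and its level is a normalised log2 intensity. A difference is in log2 units and is the Slc6a2 line minus the Slc6a4 line, with treatment and batch as terms.

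Very few probes were called different between the lines in hindbrain total RNA, which does not show that the other probes were alike. Of 24914 probes tested, 6 passed an adjusted p of 0.05 (0.0241%, limma with Benjamini-Hochberg adjustment), and 2831 had an unadjusted p under 0.05. All 6 were lower in the Slc6a2 line, and 0 were higher. In the same 15 arrays and the same fit, LPS against PBS called 76 probes (0.305%), 66 higher (0.265%) and 10 lower (0.0401%). Unbound of batch 2 against Pre-IP of batch 1 called 4339 (17.4%), 1798 higher (7.22%) and 2541 lower (10.2%). Before adjustment, 1856 probes for LPS and 7765 for batch had a p under 0.05. The line thus had fewer calls than LPS after adjustment and more probes than LPS before it, and these counts were not tested against each other. The number of line calls rested on single arrays to some degree. It was 10 without Slc6a2 LPS female of batch 2, 11 without Slc6a2 PBS male of batch 2, 11 without Slc6a2 LPS male of batch 2, and 4 without any of 5 Slc6a4 arrays.

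The typical fitted line difference was close in size to that of LPS, with fewer large values. The median size of the line difference was 0.149, against 0.126 for LPS and 0.242 for batch. The 99th percentile was 0.80 for the line, 0.89 for LPS and 1.07 for batch. A difference of more than 1 log2 unit, which is 2-fold, was fitted for 67 probes for the line, 177 for LPS and 353 for batch. The median standard error was 0.188 for the line and for LPS. That is larger than the median size of either, so much of these typical sizes may be error of the fit. For 22439 probes (90.1%) the 95% interval of the line difference lay wholly inside 1 log2 unit in either direction, so for most tested probes a 2-fold difference between lines lay outside the interval. For 3 probes the interval lay wholly beyond 1 log2 unit.

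**Figure D2:**
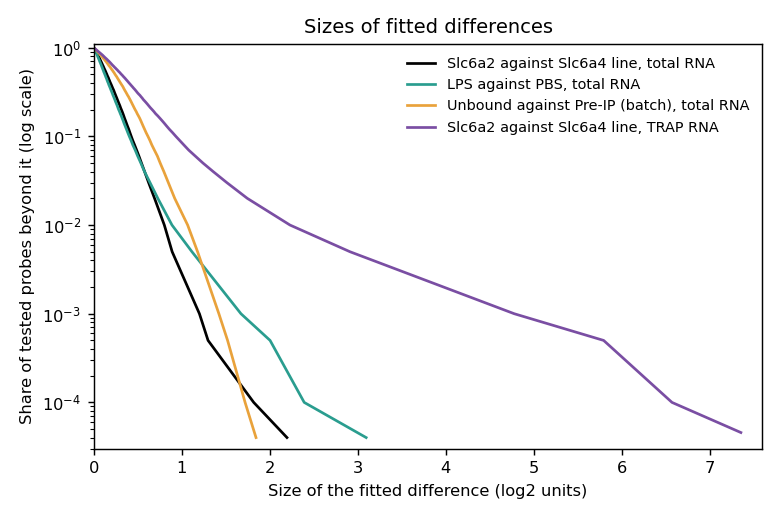
Share of tested probes, on a log axis, whose fitted difference is larger than the value on the horizontal axis in log2 units, for the line, LPS and batch terms in total RNA (24914 probes) and for the line in TRAP RNA (21863 probes). The line in total RNA stays close to LPS up to its 99th percentile of 0.80, ends at 2.20, and lies far below the line in TRAP RNA, which ends at 7.36.

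The 6 called probes fall into 4 with differences of more than 1 log2 unit and 2 with small differences at high levels. ILMN_2585676 had the largest difference. Its level in the Slc6a2 line was lowest at 6.05, with a median of 6.80 and a highest value of 7.85, and in the Slc6a4 line it ran from 7.76 through a median of 8.97 to 9.82. The lines met only across batches, because levels were higher in batch 2: within batch 1 the lines spanned 6.26 to 6.80 and 7.76 to 8.60, and within batch 2 they spanned 6.05 to 7.85 and 9.35 to 9.82. The mean was 6.79 ± 0.63 (SD, n = 7) in the Slc6a2 line and 8.88 ± 0.85 (SD, n = 8) in the Slc6a4 line. The fitted difference was -2.20 (SE 0.23, 95% interval -2.68 to -1.71, adjusted p = 0.00048), a 4.58-fold lower level in the Slc6a2 line.

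ILMN_2476405 was detected on 8 of 8 Slc6a4 arrays and on 0 of 7 Slc6a2 arrays. Its Slc6a2 values ran from 4.75 through a median of 4.85 to 5.12, and its Slc6a4 values from 5.92 through 7.05 to 7.68. The lines did not overlap, and the gap between them was 0.80 log2 units. The means were 4.91 ± 0.17 (SD, n = 7) and 6.99 ± 0.53 (SD, n = 8), with a fitted difference of -2.06 (SE 0.23, adjusted p = 0.00076). Because the Slc6a2 values were not above background, the size is a bound, at least 2.53-fold lower in the Slc6a2 line.

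The third called probe, which was not detected on 3 of the 7 Slc6a2 arrays, was the least separated of the 6. It ran from 4.59 through 6.21 to 6.93 in the Slc6a2 line and from 6.17 through 8.11 to 8.97 in the Slc6a4 line, and the lines overlapped. The fitted difference was -1.94 (SE 0.31, adjusted p = 0.029). The call was lost when any of 8 arrays was left out, namely Slc6a2 LPS female of batch 2, Slc6a2 PBS male of batch 1, the Slc6a4 batch 2 arrays of all 4 kinds, Slc6a4 LPS male of batch 1 and Slc6a4 PBS female of batch 1, with adjusted p up to 0.1.

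ILMN_2713714 was detected on every total RNA array of both lines. Its levels ran from 6.08 through 6.52 to 6.75 in the Slc6a2 line and from 7.32 through 7.78 to 8.09 in the Slc6a4 line, with a gap of 0.56 log2 units between the lines. The means were 6.45 ± 0.25 (SD, n = 7) and 7.73 ± 0.30 (SD, n = 8), with a fitted difference of -1.28 (SE 0.16, adjusted p = 0.0016), or 2.43-fold lower in the Slc6a2 line. The difference was alike in both batches, at -1.34 in batch 1 and -1.21 in batch 2.

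The fifth and sixth called probes were bright on all arrays and differed little. The fifth was at 12.35 ± 0.23 (SD, n = 7) in the Slc6a2 line and 12.86 ± 0.22 (SD, n = 8) in the Slc6a4 line, a difference of -0.47 (SE 0.07, adjusted p = 0.0081) or 1.39-fold. The sixth was at 10.73 ± 0.16 and 11.15 ± 0.12 for the same numbers of arrays, a difference of -0.44 (SE 0.07, adjusted p = 0.030) or 1.36-fold. When each array was left out in turn, the sixth was called in 4 of 15 fits, with adjusted p up to 0.1 and no turn of sign. Those 4 left out Slc6a2 PBS male of batch 2, Slc6a2 PBS female of batch 1, Slc6a2 LPS male of batch 2 or Slc6a4 LPS female of batch 1. ILMN_2585676, ILMN_2476405, ILMN_2713714 and the fifth probe were called in 15 of 15 such fits. Without a trend in eBayes, 6 probes were also called, but the third, the fifth and the sixth lost their call, with adjusted p of 0.072, 0.14 and 0.14.

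**Figure D3:**
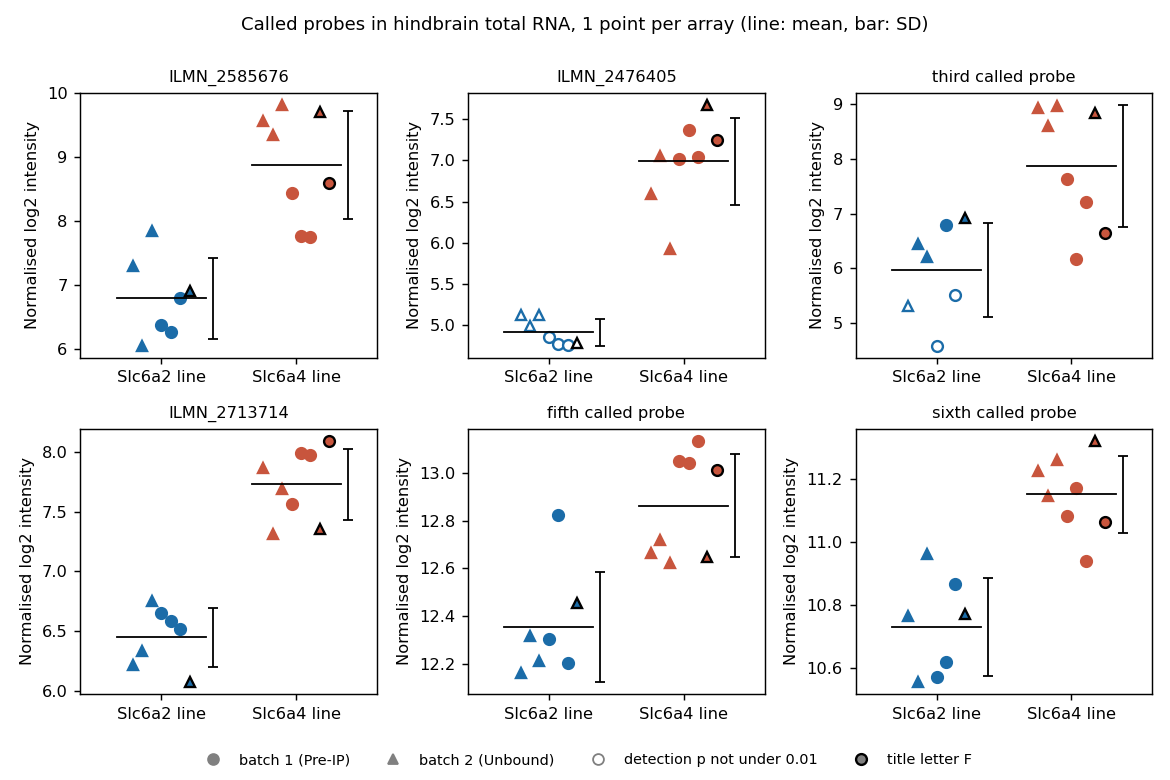
Normalised log2 intensity of the 6 called probes, 1 point per array, with the mean (line) and SD (bar) of the 7 Slc6a2 and 8 Slc6a4 arrays; open symbols were not detected and a black edge marks letter F. ILMN_2476405 and ILMN_2713714 do not overlap between lines, and the letter F arrays fall with their own line in both.

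Taking all arrays at once, 2 of the 6 called probes did not overlap between the lines, where 27 of all 24914 tested probes did not (0.108%). Within both batches, and in the same direction, 5 of the 6 did not overlap, where 126 of all tested probes did not (0.506%), 84 lower and 42 higher in the Slc6a2 line. The exception was the third probe, whose lines overlapped in batch 1. The called probes were chosen on these same values, so these counts describe them and add no test.

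The probes with the smallest p among those higher in the Slc6a2 line did not pass. ILMN_2817151 was at 8.94 ± 0.66 (SD, n = 7) in the Slc6a2 line and 8.16 ± 0.62 (SD, n = 8) in the Slc6a4 line, with a fitted difference of 0.87 (SE 0.16, adjusted p = 0.11). ILMN_1259818 was at 11.17 ± 0.26 and 10.54 ± 0.25, with a difference of 0.60 (SE 0.11, adjusted p = 0.11). Both passed without the Slc6a2 PBS male array of batch 2, at an adjusted p of 0.035 and 0.028. ILMN_2817151 also passed without Slc6a2 PBS male of batch 1, at 0.036.

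Since the title letter and the line nearly coincide, the calls were examined in subsets of arrays. With the 12 arrays of letters D and E only, 2 probes were called (0.00803%), ILMN_2585676 at -2.10 and ILMN_2476405 at -1.87, each with an adjusted p of 0.042. The 3 arrays of letter F took no part in that fit, and 2 of them, both LPS male of batch 2, form a pair of 1 Slc6a2 and 1 Slc6a4 array. In that pair the difference was -2.80 for ILMN_2585676 and -2.90 for ILMN_2476405. For comparison, 51.2% of all tested probes had the same sign in the pair as in letters D and E. The pair has no replicate and so no test. All 6 called probes were lower in the Slc6a2 array of the pair, with differences from -2.90 to -0.19. With the letter as a term in the fit, limma called 0 probes, and an unadjusted p under 0.05 was found for 776. In that fit the contrast rests on the letter F arrays, and ILMN_2585676 was at -2.57 (SE 0.58, adjusted p = 0.62) and ILMN_2476405 at -2.75 (SE 0.55, adjusted p = 0.35).

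**Figure D4:**
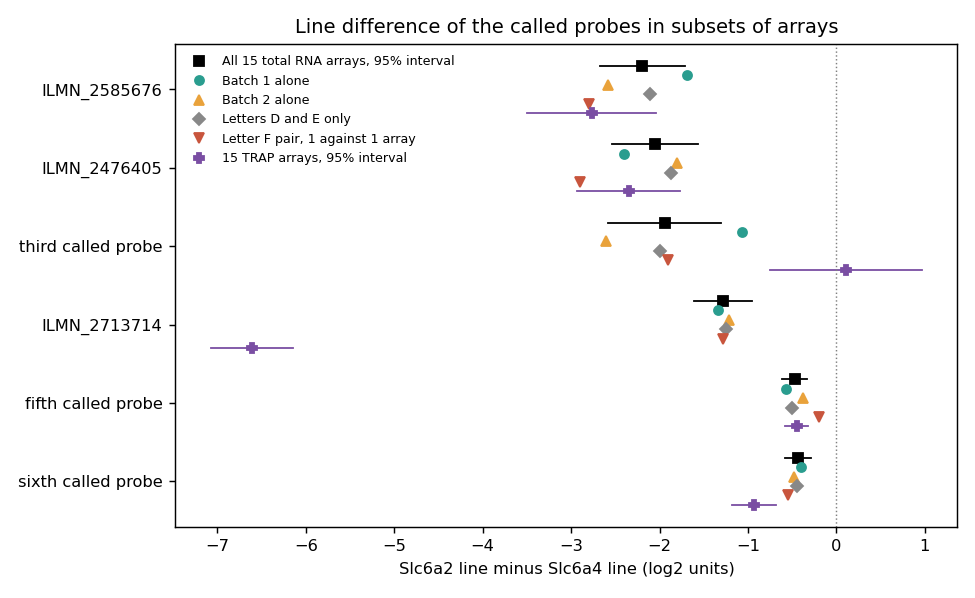
Line difference in log2 units of the 6 called probes in all 15 total RNA arrays (95% interval), in batch 1, in batch 2, in letters D and E, in the letter F pair and in the 15 TRAP arrays (95% interval). Every total RNA subset lies below 0 for every probe, but the subsets are parts of the 15 arrays on which the probes were called. In TRAP RNA the third called probe is at 0.11 and ILMN_2713714 at -6.61.

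Taken by batch, the 7 Pre-IP arrays of batch 1 alone called 139 probes (0.558%), 48 higher (0.193%) and 91 lower (0.365%) in the Slc6a2 line. The 8 Unbound arrays of batch 2 alone gave 0 calls in limma and 1372 probes at an unadjusted p under 0.05. The median residual SD was 0.230 in batch 1 and 0.368 in batch 2, on 4 and 5 residual degrees of freedom. Of the 139 probes, 104 (74.8%) had the same sign in batch 2, against 53.2% of all tested probes. Their median size was 0.867 in batch 1, and in batch 2 their median difference in the direction of batch 1 was 0.124. In batch 2, 13 of the 139 had an unadjusted p under 0.05 and the same sign. All but the third and sixth called probes of the 15-array fit were among the 139. At the median, the batch 1 differences thus kept little of their size in batch 2. The 139 were chosen on their batch 1 values, which favours large sizes there, and how much of the fall this accounts for was not tested.

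Batch 1 holds 3 Slc6a2 arrays, all of letter D, and 4 Slc6a4 arrays, of which 3 have letter E and 1 has letter F. The letter F array, Slc6a4 PBS female, correlated with the letter E arrays of its own line at 0.9821 to 0.9823 and with the letter D arrays at 0.9576 to 0.9735. Among themselves, the letter E arrays correlated at 0.9778 to 0.9799 and the letter D arrays at 0.9630 to 0.9663. The letter F arrays of batch 2 did not side with their line in this way. They correlated with each other at 0.9526. The Slc6a4 one correlated with the batch 2 arrays of letter E, its own line, at 0.9379 to 0.9446 and of letter D at 0.9065 to 0.9427. The Slc6a2 one correlated with those of letter D, its own line, at 0.9167 to 0.9545 and of letter E at 0.9481 to 0.9528. In a fit of the 6 letter D and E arrays of batch 1, added after the data were seen, 10 probes were called (0.0401%), 2 higher and 8 lower. The letter F array of batch 1, which was not in that fit, lay nearer the letter E mean for 9 of the 10 (90.0%), against 66.2% of all tested probes. In batch 2, the sign of the letter F pair matched for 5 of the 10, against 50.7% of all tested probes.

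The response to LPS was not detectably different between the lines. The line by treatment term gave 0 calls among 24914 probes in limma, with 1288 at an unadjusted p under 0.05. The term of ILMN_2778289, the LPS response in the Slc6a2 line minus that in the Slc6a4 line, was 2.40 (SE 0.50, adjusted p = 0.84). It was at 7.36, 7.80 and 5.71 on the 3 Slc6a2 LPS arrays, and between 4.29 and 4.97 on all 8 Slc6a4 arrays, none of which detected it. The 4 Slc6a2 PBS arrays lay between 4.30 and 4.47. The lowest of the LPS values is the letter F array, which is also the only male among the Slc6a2 LPS arrays of total RNA. Without that array the term was 2.97 with an adjusted p of 0.016 and 2 probes were called. In that fit the Slc6a2 LPS arrays are all female and the Slc6a4 LPS arrays are of both sexes, so sex cannot be told apart from the term. In TRAP RNA, 3 of 8 Slc6a2 and 0 of 7 Slc6a4 arrays detected ILMN_2778289. Those 3 were LPS female at 7.68 and 6.01 and PBS female of batch 1 at 7.74. The Slc6a2 LPS male TRAP arrays, at 4.285 and 4.616, did not detect it, so its TRAP values did not follow treatment alone. The term of ILMN_2597532 was 0.50, that of ILMN_2652572 was -1.51 and that of ILMN_2498539 was -2.56, each with an adjusted p of 0.84.

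The line difference itself differed between batches for 1 probe (0.00401%), and 2371 had an unadjusted p under 0.05. ILMN_2893879 was at 8.17, 7.85 and 8.15 on the 3 Slc6a2 Pre-IP arrays and between 4.64 and 4.89 on the 4 Slc6a4 Pre-IP arrays. On the Unbound arrays it was between 4.63 and 5.26 in the Slc6a2 line and between 4.66 and 6.40 in the Slc6a4 line. It was therefore high in 1 line in batch 1 and near background in most other arrays. The difference was 3.25 in batch 1 and -0.26 in batch 2, and the interaction, batch 2 minus batch 1, was -3.51 (SE 0.47, adjusted p = 0.026). The probe lost its call in 11 of 15 fits that left out 1 array, with adjusted p up to 0.14. Those arrays were every Slc6a2 array but the one of letter F, and Slc6a4 replicates 4 to 8, which are the 4 Pre-IP arrays and LPS male of batch 2. The 4 Slc6a4 Pre-IP arrays did not detect the probe, so the batch 1 difference and the interaction rest on values at background. In TRAP RNA, where 5 of 8 Slc6a2 and 0 of 7 Slc6a4 arrays detected it, it was at least 1.70-fold higher in the Slc6a2 line (adjusted p = 0.015). The Slc6a2 TRAP arrays of batch 1 were at 6.562, 7.387, 6.537 and 8.318, and all detected it. Those of batch 2 were at 4.854, 4.935, 6.395 and 5.714, and only the one at 6.395 detected it. The TRAP difference thus rests mostly on batch 1, and this split was not tested. The probes next in order did not pass, at an interaction of 2.24 for ILMN_2577511 and 1.497 for ILMN_2754435 (adjusted p = 0.18 for each) and -2.77 for ILMN_2536045 (adjusted p = 0.096).

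As a reference, the same contrast with the same terms was fitted to the 15 TRAP arrays (8 Slc6a2, 7 Slc6a4). It called 2523 of 21863 probes (11.5%), 1061 higher (4.85%) and 1462 lower (6.69%) in the Slc6a2 line. The number fell to 432 with the title letter as a term. The median residual SD was 0.547 in TRAP RNA and 0.341 in total RNA, so the total RNA fit had fewer calls in spite of a smaller spread. A difference of more than 1 log2 unit was fitted for 1856 probes in TRAP RNA and for 67 in total RNA. In bulk RNA, fewer cells of a type and less RNA per cell cannot be told apart.

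Lists of probes that differed between the lines in TRAP RNA had medians close to 0 in total RNA. Of the 1061 higher in Slc6a2 TRAP RNA, 995 were tested in total RNA, where their median line difference was -0.003 (quartiles -0.128 and 0.116), against a TRAP median of 0.843. None of these 995 was called in total RNA, where 0.0241% of all probes were, and 72 were higher and 83 lower at an unadjusted p under 0.05. Of the 1462 lower in Slc6a2 TRAP RNA, 1390 were tested, with a total RNA median of -0.017, a TRAP median of -0.953 and 5 called. At an unadjusted p under 0.05, 78 of these 1390 were higher and 137 lower, against 1137 and 1355 of all 21047 probes tested in both kinds of RNA. The share that was lower was thus larger in this list than among all probes. It was also larger in the first list, with 83 of 995, as was the share that was higher, with 72 of 995. An excess of lower probes was therefore not particular to the list lower in TRAP RNA, and these excesses were not tested. The 5 calls are among 6 in all 21047 probes. Over all 21047 probes tested in both kinds of RNA, the medians were -0.007 in total and -0.044 in TRAP RNA. A total RNA difference of over 0.5 log2 units was fitted for 3.42% of the first list, 5.25% of the second and 5.29% of all probes.

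The largest TRAP differences, of more than 3 log2 units, a limit set after the values were seen, also had total RNA medians near 0. Of 49 such probes higher in Slc6a2 TRAP RNA, 43 were tested in total RNA, with a TRAP median of 3.79 and a total median of -0.05. Of 51 lower, 45 were tested, with medians of -3.69 and -0.03, and 1 of them was called in total RNA. A total RNA difference of over 0.5 log2 units was fitted for 6.98% of the former and 8.89% of the latter, which is 3 and 4 probes. By batch, the total RNA median of the former was 0.105 in batch 1 (Pre-IP) and -0.198 in batch 2 (Unbound). That of the latter was -0.099 in batch 1 and 0.031 in batch 2. For all 21047 probes tested in both kinds of RNA it was -0.012 and -0.004. The pooled medians thus join batches of opposite sign, and this split was not tested. Across the 21047 probes, which share arrays within each kind of RNA and are not independent, the line differences of TRAP and total RNA correlated at r = 0.023 and rho = 0.001.

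**Figure D5:**
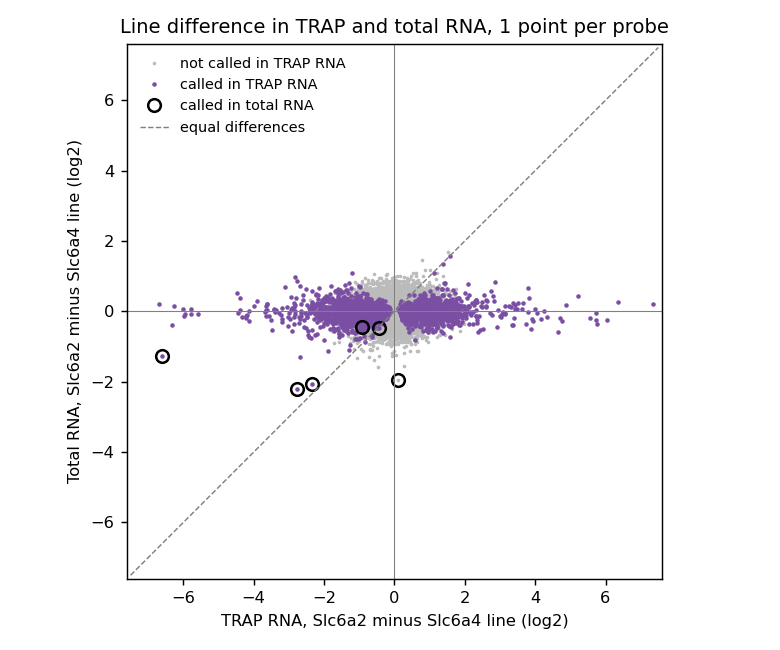
Line difference in log2 units in TRAP RNA (horizontal) and total RNA (vertical), 1 point per probe for the 21047 probes tested in both; purple marks calls in TRAP RNA and rings mark the 6 calls in total RNA. Most TRAP calls spread along the horizontal axis with total RNA differences near 0, while 5 of the 6 ringed probes are also lower in the Slc6a2 line in TRAP RNA.

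Single probes show how wide that gap was. ILMN_2922875 was at 12.76 ± 0.24 (SD, n = 8) in Slc6a2 TRAP RNA and 5.43 ± 0.57 (SD, n = 7) in Slc6a4 TRAP RNA, a difference of 7.36 (SE 0.20). In total RNA it was detected on all 15 arrays, at 7.74 ± 0.33 (SD, n = 7) and 7.55 ± 0.23 (SD, n = 8), a difference of 0.21 (SE 0.16, 95% interval -0.12 to 0.54, adjusted p = 0.64). ILMN_2729817 had a TRAP difference of -6.68 and a total RNA difference of 0.21 (SE 0.22, adjusted p = 0.76). It was detected on 4 of 7 Slc6a2 and 4 of 8 Slc6a4 total RNA arrays, and on 1 of 8 Slc6a2 TRAP arrays. Its differences in both kinds of RNA thus rest partly on values at background. ILMN_2669234, at least 42.8-fold higher in Slc6a2 TRAP RNA, was detected on 0 of the 15 total RNA arrays.

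The difference between the 2 line differences was tested in a fit of all 30 arrays. It was called for 1899 of 24914 probes (7.62%), 934 higher (3.75%) and 965 lower (3.87%) in TRAP RNA than in total RNA. Among the 14 pairs of a TRAP and a total RNA array that share line, sex, treatment and batch, the paired fit called 994 (3.99%), 444 higher (1.78%) and 550 lower (2.21%). The largest terms, TRAP minus total, were 6.80 for ILMN_2922875, 5.95 for ILMN_1216880, -6.79 for ILMN_2729817 and -6.22 for ILMN_2744603. Each of these probes was undetected on some TRAP arrays of its dimmer line, so the sizes rest partly on values at background. In total RNA the line differences of ILMN_1216880 and ILMN_2744603 were -0.24 and 0.14.

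Of the 6 probes called in total RNA, 5 were also called lower in the Slc6a2 line in TRAP RNA, which is 83.3% of the total RNA calls and 0.198% of the TRAP calls. These calls come from separate arrays, but the labels say that total RNA was taken from hindbrain in parallel with TRAP, so the mice may be shared. Of all 21863 probes tested in TRAP RNA, 6.69% were called lower. ILMN_2585676 was detected on 0 of 8 Slc6a2 TRAP arrays and 6 of 7 Slc6a4 TRAP arrays, at 4.47 ± 0.07 (SD, n = 8) and 7.20 ± 0.95 (SD, n = 7), at least 2.77-fold lower in the Slc6a2 line (adjusted p = 3.3e-05). ILMN_2476405 was detected on all 15 TRAP arrays, at 9.27 ± 0.83 (SD, n = 8) and 11.60 ± 0.17 (SD, n = 7), a difference of -2.35 (SE 0.28, adjusted p = 1.7e-05). Each of these probes had 1 group below background, ILMN_2585676 in TRAP RNA and ILMN_2476405 in total RNA, so the sizes of their differences cannot be set against each other between kinds of RNA.

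The other called probes did not all keep their size. ILMN_2713714 was at 5.36 ± 0.46 (SD, n = 8) in Slc6a2 TRAP RNA, detected on 1 of 8 arrays, and at 11.97 ± 0.18 (SD, n = 7) in Slc6a4 TRAP RNA, detected on 7 of 7. Its TRAP difference of -6.61 (SE 0.22, adjusted p = 2.3e-12) exceeded that in total RNA by -4.94 (SE 0.29, adjusted p = 1.2e-12), and by -5.00 in the paired fit (adjusted p = 9.9e-08). It is the only probe of more than 3 log2 units in TRAP RNA that was also called in total RNA. The third called probe had no such counterpart, with a TRAP difference of 0.11 (SE 0.41, adjusted p = 0.9) and a TRAP minus total term of 2.09 (SE 0.59, adjusted p = 0.027, and 0.05 in the paired fit). It was detected on 3 of 8 and 2 of 7 TRAP arrays. The fifth probe differed by -0.45 in TRAP RNA (SE 0.06, adjusted p = 8.9e-05) and the sixth by -0.93 (SE 0.12, adjusted p = 3.2e-05). The TRAP minus total term was 0.02 for the fifth (adjusted p = 0.94) and -0.43 for the sixth (adjusted p = 0.046, and 0.25 in the paired fit).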

How the data were processed

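Hindbrain RNA was amplified from nanogram amounts and hybridised to Illumina bead arrays. The deposited table gives an intensity per probe on a linear scale, not normalised, with a detection p-value per probe that the authors deposited beside it. The submitters' processing notes name lumi; its role, the array version and how beads were summarised are not stated. The 15 total RNA arrays were background-corrected by normexp from the detection p-values (offset 16), quantile normalised and log2 transformed (neqc, limma 3.58.1, R 4.3.3). Probes with a detection p under 0.01 on at least 3 of 15 arrays were tested (24914 of 45281). limma (lmFit, eBayes with trend) was fitted with line, treatment and amplification batch, with Benjamini-Hochberg adjustment and a threshold of 0.05. TRAP arrays were treated alike, and the difference between kinds of RNA was fitted on all 30 arrays normalised together. The labels give no replicate number that pairs the lines. Amplification batch, which both lines share, is a term of the fit. Probes were named as the 2 per direction with the largest differences among calls of one sign in both batches, or else with the smallest p. A probe not detected on any array of a group has a bound, its brighter group's mean against the lowest detected signal of each array. Gene lists were not examined, since probes have no gene names here. Arrays, lists and tests were chosen with earlier results of these data known. The number of arrays limits the precision.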

Additional observations from a re-analysis of the deposited data

Results flagged for a closer look

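In 24 checks of array quality and probe levels within a line, 2 values stood apart from the rest of their group, where chance gives about 1 in 20. The median deposited intensity of Slc6a2 LPS male of batch 2 was 148.2, against 100.4 to 112.8 on the other 6 Slc6a2 arrays. The first principal component of Slc6a2 PBS male of batch 2 was 95.5, against -29.5 to 18.1 on the others. Without the former, 11 probes were called between the lines, and without the latter also 11, against 6 with all arrays.

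For 3 of the 6 called probes the line difference differed between TRAP and total RNA by the test of the difference itself. The term, TRAP minus total, was -4.94 for ILMN_2713714, 2.09 for the third called probe and -0.43 for the sixth. In the paired fit the adjusted p was 0.05 for the third probe and 0.25 for the sixth. For ILMN_2893879 the line difference in batch 2 minus that in batch 1 was -3.51.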

How the results depend on the processing

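The count of 6 line calls in total RNA was within 1.5 times under other normalizations, offsets, filters, a sex term, cell means, eBayes without trend and a minimum of 1 log2 unit (4 to 8, all lower in the Slc6a2 line). The probes changed more than the count: of the 6, eBayes without trend kept 3, cell means 4 and median centring 5. It was 2 without the term for amplification batch (the fit with no replicate block), 2 in letters D and E, 0 with the letter as a term, 0 in batch 2 alone, 139 in batch 1 alone, 10 in batch 1 letters D and E (added after seeing the data) and 91 with array weights (27 higher, 64 lower). With the letter as a random block it was 3409 (1552 higher, 1857 lower), where the estimated correlation was -0.118. The cause of these shifts was not tested. Leaving out 1 array gave 4 to 11. The LPS by line count of 0 ranged to 2. The line by batch count of 1 was 0 with no filter and 0 with a sex term, and 0 to 2 without 1 array. TRAP calls were 432 with the letter as a term, and calls between kinds of RNA 994 with pairs of a TRAP and a total RNA array as the replicate block. The difference in detected probes ranged from -330.1 to 63.6 without 1 array. Dim probes carry only bounds, and 16767 probes were detected on no total RNA array.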
